A study of Mus musculus with 2 samples.

Results

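Of 33276 tall peaks shared by 2 DNase-seq libraries of mouse kidney, 136 (0.409%) held no DNase I footprint of their own library in either of the 2. DNase-seq maps accessible chromatin: DNase I cuts nuclear DNA where nucleosomes do not cover it, and peaks mark stretches with many cuts. A footprint is a short run of bases inside a peak with fewer cuts than its surroundings, usually read as a protein bound there. Accessible regions often lie in groups around transcription start sites, where a nucleosome-free centre is flanked by positioned nucleosomes and smaller accessible stretches. In kidney most accessible chromatin comes from tubule epithelium, together with endothelium and other cells.

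The tissue was kidney of female B6CASTF1/J mice, the first-generation hybrid of C57BL/6J and CAST/EiJ, aged 36 days, without treatment. The 2 libraries are labelled as biological replicates 1 and 2 of 1 group, and there was no control, second tissue or second condition. Both carry the same donor entry, so only the replicate numbers tell the animals apart, and a spread between them may be technical. Members were the replicate 1 peaks on the 19 autosomes with a height at or above the library's median, overlapping a replicate 2 peak that was also at or above its median, where neither peak overlapped a footprint of its own library. The rule reads each peak against its own library alone: in 3 members the replicate 1 peak overlapped a footprint of replicate 2, and in 7 the replicate 2 peak overlapped one of replicate 1. Height is the authors' signal value, on a scale that is not stated, and the medians were 1.34 in replicate 1 and 1.47 in replicate 2. The members were thus chosen by height and footprint overlap, so their heights are a description and carry no test. With 1 group, no comparison below has a test, and values over the members are set beside the same values over other tall shared peaks. In whole tissue a peak open in few cells and a peak partly open in many cells cannot be told apart.

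The labelled tissue was checked by fixed marker lists at the same tall shared peaks. Such peaks lay within 1 kb of a start of 12 of 20 proximal tubule genes, 11 of 13 endothelial genes and 18 of 20 housekeeping genes, against 0 of 10 immune genes and 1 of 16 transcription factor genes of other organs. The remaining kidney lists varied. They gave 24 of 28 kidney transcription factor, 6 of 11 podocyte, 5 of 10 thick ascending limb and 4 of 10 distal convoluted and connecting tubule genes. Lower still were principal cells with 3 of 10, intercalated cells with 2 of 10 and stroma and mural cells with 2 of 11. The stricter peak sets held 124504 peaks in replicate 1 and 68056 in replicate 2, and the footprint files 375848 and 223827 footprints. Of the tall peaks of each library taken alone, 1590 of 61070 in replicate 1 and 793 of 33432 in replicate 2 had no footprint of that library.

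The sequences of 5 members show what the unmarked peaks look like. They are among the highest members of at most 300 bp without an annotated UTR, and are given for the replicate 1 peak on the plus strand of mm10, from RefSeq's GRCm38.p6 sequence. All are in lower case because no base of them lay in a footprint. The D630024D03Rik peak was chr11:31824481-31824700. The Fzd5 peak was chr1:64738221-64738440, the Zc3h18 peak chr8:122377041-122377260, the Gm45242 peak chr8:64947501-64947640 and the Zswim6 peak chr13:107891281-107891520. For contrast, the last sequence is the central 300 bp of the taller peak beside the D630024D03Rik member, chr11:31824871-31825170, with the bases inside a footprint of either library in capitals. That peak was chosen after its values were seen.
D630024D03Rik: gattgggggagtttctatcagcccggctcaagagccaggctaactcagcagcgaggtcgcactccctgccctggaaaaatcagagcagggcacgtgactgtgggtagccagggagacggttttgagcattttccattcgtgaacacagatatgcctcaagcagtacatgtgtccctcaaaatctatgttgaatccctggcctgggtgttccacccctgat
Fzd5: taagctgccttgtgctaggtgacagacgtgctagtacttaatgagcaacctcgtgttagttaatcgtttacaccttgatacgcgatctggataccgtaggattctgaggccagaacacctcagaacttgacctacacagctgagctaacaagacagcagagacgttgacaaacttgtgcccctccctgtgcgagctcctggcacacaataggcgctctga
Zc3h18: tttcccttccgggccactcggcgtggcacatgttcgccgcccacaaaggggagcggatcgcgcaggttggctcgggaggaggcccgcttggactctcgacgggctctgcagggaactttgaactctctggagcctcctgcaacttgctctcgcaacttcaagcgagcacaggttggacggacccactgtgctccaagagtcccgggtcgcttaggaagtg
Gm45242: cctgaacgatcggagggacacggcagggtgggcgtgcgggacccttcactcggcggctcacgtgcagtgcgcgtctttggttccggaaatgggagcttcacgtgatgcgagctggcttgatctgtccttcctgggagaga
Zswim6: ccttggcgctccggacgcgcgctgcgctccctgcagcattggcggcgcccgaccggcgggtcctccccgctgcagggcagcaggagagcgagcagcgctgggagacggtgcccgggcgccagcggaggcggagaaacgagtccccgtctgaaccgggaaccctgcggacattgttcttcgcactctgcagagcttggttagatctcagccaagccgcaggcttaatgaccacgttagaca
D630024D03Rik taller neighbour: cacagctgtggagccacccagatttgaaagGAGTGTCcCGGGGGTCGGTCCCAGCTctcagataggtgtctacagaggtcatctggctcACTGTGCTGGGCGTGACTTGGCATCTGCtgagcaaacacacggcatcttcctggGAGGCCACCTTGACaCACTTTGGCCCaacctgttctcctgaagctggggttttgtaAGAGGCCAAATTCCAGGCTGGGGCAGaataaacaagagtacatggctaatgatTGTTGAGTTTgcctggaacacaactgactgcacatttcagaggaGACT

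The members lay in the lower part of the tall range. Their heights ran from 1.35 over a median of 2.35 to 5.28 in replicate 1, and from 1.47 over 1.66 to 4.75 in replicate 2. The 32326 tall shared peaks with a footprint in both libraries had medians of 4.66 and 2.95 and reached 66.5 and 53.2. Among peaks with a mean within-library height rank of 60% or less, 3.0% (41 of 1366, exact 95% binomial interval 2.16 to 4.05) had no footprint. Above a mean rank of 75% there were 7 members, and above 90% there was none among 8544 peaks, which allows a share of up to 0.0351% by 3 counts of the total and 0.0432% by the exact interval. The lowest false discovery rate of the cut rate inside a member had a median −log10 of 15.7 in replicate 1 and 10 in replicate 2, against 35 and 19.7 in peaks with a footprint in both. Since the members were lower than the footprinted peaks, a lower height band was set apart, in which the lower of the 2 height ranks was under 70%. It held 127 of the 136 members and 12445 peaks with a footprint in both libraries, with median heights of 2.28 and 2.96 in replicate 1 and of 1.64 and 1.85 in replicate 2. The part of the remaining height difference in the results below was not tested.

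**Figure D1:**
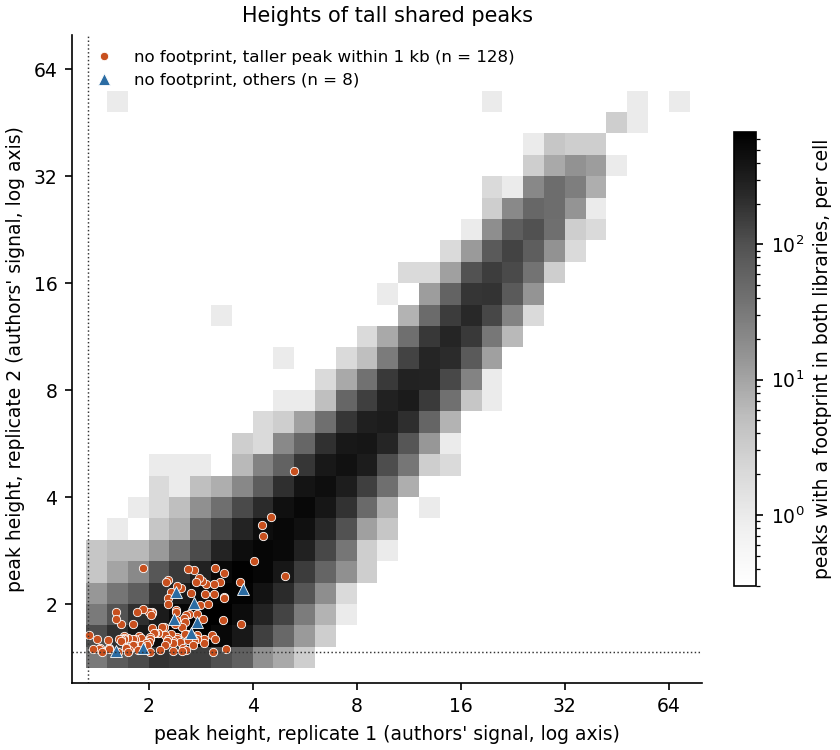
Heights of tall shared peaks in replicate 1 (x axis) and replicate 2 (y axis), in the authors' signal units on log axes; grey cells count the peaks with a footprint in both libraries and dotted lines mark the medians 1.34 and 1.47. Orange points are the 128 peaks without a footprint that had a taller peak within 1 kb in both libraries and blue triangles the other 8, and all lie at or below 5.28 and 4.75.

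At the edge of the rule, 3 of the members tied as nearest inside it had Gm38534, Gm1976 and Rfx3 as their nearest genes. The last 2 lay at promoters and the first between genes, 17587 bp upstream of the start. Their heights in replicate 2 were all 1.47, and 1.63, 1.47 and 1.74 in replicate 1. Members at Slc1a1 and Zfp787 had the same height in replicate 2, with 2.02 and 3.07 in replicate 1, so the edge was set by replicate 2 alone. The 3 shared peaks nearest outside it, with Mir26b, Cct4 and Gm11611 as nearest genes, had 1.46 in replicate 2 and 1.58, 2.11 and 2.06 in replicate 1. Among all 31119 shared peaks below the height rule, 4.39% had no footprint in either library.

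Nearly every member stood beside a taller peak. In 128 of 136 (94.1%, exact 95% binomial interval 88.7 to 97.4, which covers counting error only) a peak of the same library, taller than the member, had its middle within 1 kb in both libraries. The same held for 10.7% of the 32326 peaks with a footprint in both libraries and for 12.2% of those in the lower height band. The tallest such neighbour was a median of 4.91 times the member's height in replicate 1 and 4.66 times in replicate 2, with ranges of 1.05 to 21.7 and 1.34 to 19.2. Where peaks with a footprint in both had a taller neighbour, it was a median of 1.6 and 1.69 times as tall. In replicate 1, 128 members had a taller neighbour, of median height 11.8, and in replicate 2, 129 had one, of median height 9.17.

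The neighbour carried footprints where the member had none. It held a median of 5 footprints in each library, with the middle 50% of values from 4 to 6 in replicate 1 and from 3 to 6 in replicate 2. In replicate 1 a single neighbour had none, beside the Arhgap21 start, and that neighbour was itself a member, at 1.05 times the height. In replicate 2 every neighbour of the 128 members had at least 1 footprint. This was also the rule for peaks with a footprint in both libraries. Their taller neighbours held a median of 4 footprints in each library. Of these neighbours, 6 of 4285 in replicate 1 and 11 of 3962 in replicate 2 had none. The neighbour's middle lay a median of 450 bp from the member's in replicate 1 and 434 bp in replicate 2, and the gap between their edges had medians of 220 and 216 bp. From the member's edge to the nearest footprint of its library the median distance over all members was 153 and 178 bp. A footprint lay within 250 bp of 98 members in replicate 1 and of 89 in replicate 2, but within 50 bp of only 10 and 6. The nearest other peak of any height was a median of 180 bp away in both libraries, against 800 and 1701 bp for peaks with a footprint in both.

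The share of tall shared peaks without a footprint was higher where the neighbour was larger relative to the peak. In replicate 1 it was 0.0283% (8 of 28298) with no taller peak within 1 kb, 0.201% with one up to 2 times as tall, 2.17% from 2 to 3 times, 5.67% from 3 to 5 times, 14.6% from 5 to 8 times and 30.4% (24 of 79) beyond 8 times. Measured on replicate 2 heights, the shares were 0.0244%, 0.354%, 2.84%, 5.11%, 9.91% and 16.9%. Within the lower height band the order was the same in both libraries, from 0.0744% to 32% in replicate 1 and from 0.0642% to 20.8% in replicate 2. The member's own height is the denominator of this ratio, so height and the presence of a taller neighbour were also crossed. The neighbour's size was not crossed with these ranks, so its part apart from the member's own height was not tested. At a mean rank of 60% or less, 39 of 237 peaks with a taller neighbour in both libraries had no footprint (16.5%), against 2 of 1129 of the others (0.177%). Between 60% and 65% the shares were 8.52% and 0.0457%, between 65% and 70% 3.98% and 0.118%, and between 70% and 75% 2.71% and 0.0284%. The share also varied with the distance of the neighbour. With its middle within 200 bp in replicate 1, 0 of 117 peaks lacked a footprint, which allows a share of up to 2.56% by 3 counts of the total and 3.10% by the exact interval. Tall shared peaks were a median of 200 bp wide in replicate 1, so neighbours this close may overlap the peak. The part of such overlap in the share was not tested. The share was highest between 400 and 500 bp (4.66%, 37 of 794) and 0.853% beyond 700 bp.

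**Figure D2:**
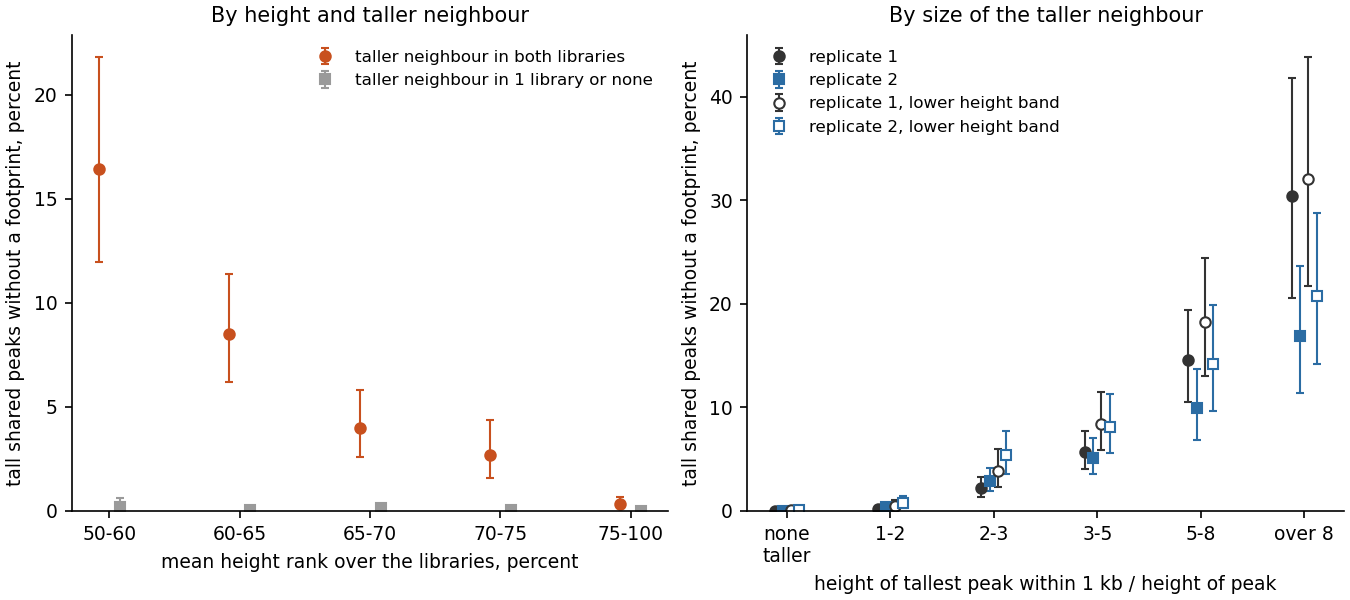
Percent of tall shared peaks without a footprint in either library, with exact 95% binomial intervals: left, by mean height rank over the libraries for peaks with (orange) and without (grey) a taller peak within 1 kb in both; right, by the height of the tallest peak within 1 kb over the peak's own height, for replicate 1 (black) and replicate 2 (blue), with open symbols for the lower height band. The orange share falls from 16.5% to 0.317% with rank and the grey share stays at or below 0.177%, while the right panel climbs to 30.4% and 16.9%.

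In the false discovery rates the members appeared on average as a low summit beside a higher one. With every member turned so that its taller neighbour lay to the right, the median −log10 rate in replicate 1 was 15.5 at the member's middle, 10.8 at 200 bp towards the neighbour and 49.1 at 400 bp, against 2.40 at 200 bp on the far side. In replicate 2 the corresponding medians were 9.79, 7.13, 31.5 and 0. Positions without a deposited rate were set to 0, so a median of 0 need not be a measured value. Peaks of the lower band with a footprint in both and a taller neighbour in replicate 1 had a like centre, 16.0 and 9.16, but 6.83 and 3.36 at 400 bp towards the neighbour. At 200 bp towards the neighbour these peaks had 3.51 and 1.82. Their neighbours were also farther away, a median of 580 bp from the peak's middle in replicate 1, and the depth between the summits was not measured peak by peak. The unbroken stretch at a rate of at most 0.001 around a member was a median of 832 bp long in replicate 1 and 664 bp in replicate 2, against 454 and 375 bp for peaks with a footprint in both. Peaks themselves were 220 bp wide at the median in each library, against 200 and 215 bp.

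**Figure D3:**
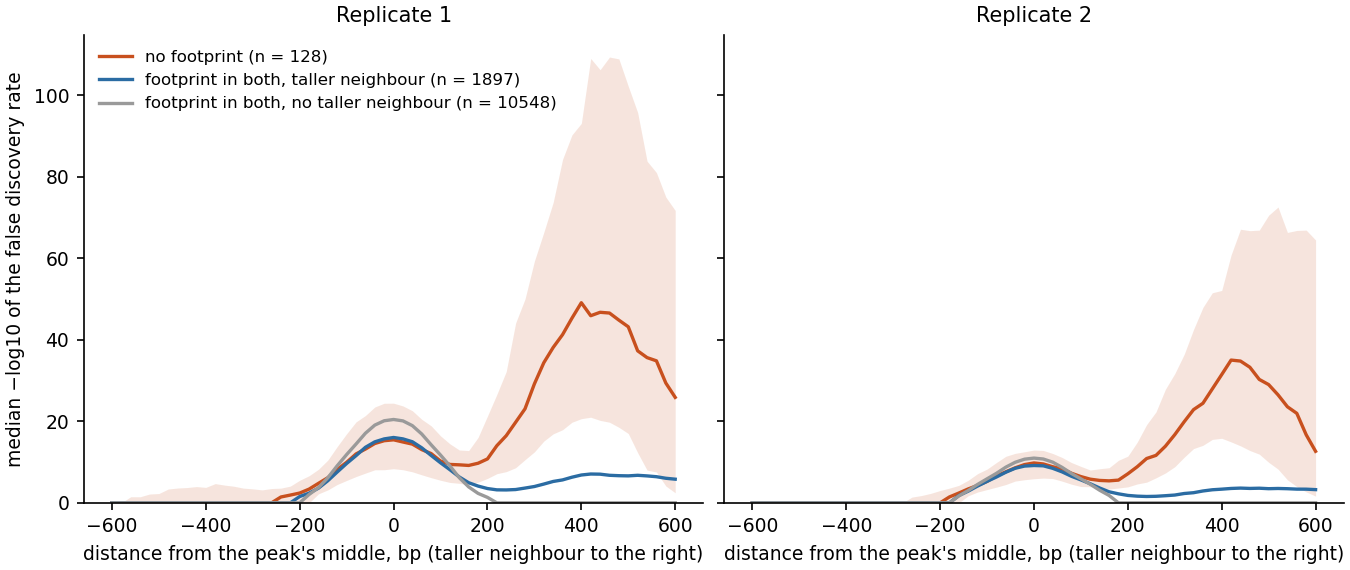
Median −log10 of the false discovery rate of the cut rate by distance from the peak's middle, with the taller neighbour to the right, in replicate 1 (left) and replicate 2 (right); orange shows the 128 members with a taller neighbour in replicate 1, with the middle 50% of values shaded, and blue and grey the lower height band with a footprint in both libraries, with and without a taller neighbour. All 3 lines have a summit at 0, and only the orange one climbs to a higher second summit, 49.1 at 400 bp in replicate 1 and 35.0 at 420 bp in replicate 2. Positions without a deposited rate were set to 0.

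Most members lay at promoters, and more often downstream of the start than promoter peaks with a footprint in both libraries. By the middle of the replicate 1 peak, 96 of 136 (70.6%) were within 1 kb of an annotated transcript start, 22 in introns, 16 between genes and 2 in exons, at Slc1a1 and Gm48356. Of peaks with a footprint in both libraries 47.3% were at promoters, and 27.7% in the lower height band. Tall shared peaks with a taller neighbour in both libraries were closer to the members in place. Of these 4146 peaks 2844 were at promoters, and of the 128 members among them 93. Of the 96 promoter members, 53 (55.2%) lay downstream of the nearest start, against 27.1% of footprinted promoter peaks and 38.5% in the band. Promoter peaks with a footprint in a single library were close to the members, at 52.7% for replicate 1 only and 49.4% for replicate 2 only. The middle lay within 150 bp of the start in 34 members (35.4%), against 71.2% and 54.2%, and from 150 to 500 bp downstream in another 34 (35.4%), against 6.99% and 12.1%. A transcript start lay inside the taller neighbour of 64 members in replicate 1 (50% of those with one) and 66 in replicate 2 (51.2%). For peaks with a footprint in both libraries the shares were 40.1% and 41.3%. Peaks with a footprint in replicate 1 only had 54.8% and 56.1%, and in replicate 2 only 37.1% and 34.6%. Relative to the start in the neighbour, 40 of 64 members were downstream (62.5%), and so were 63.4% of the footprinted peaks of the lower band with such a neighbour. The nearest start belonged to a protein-coding gene in 107 members (78.7%), against 74.4% of footprinted peaks.

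**Figure D4:**
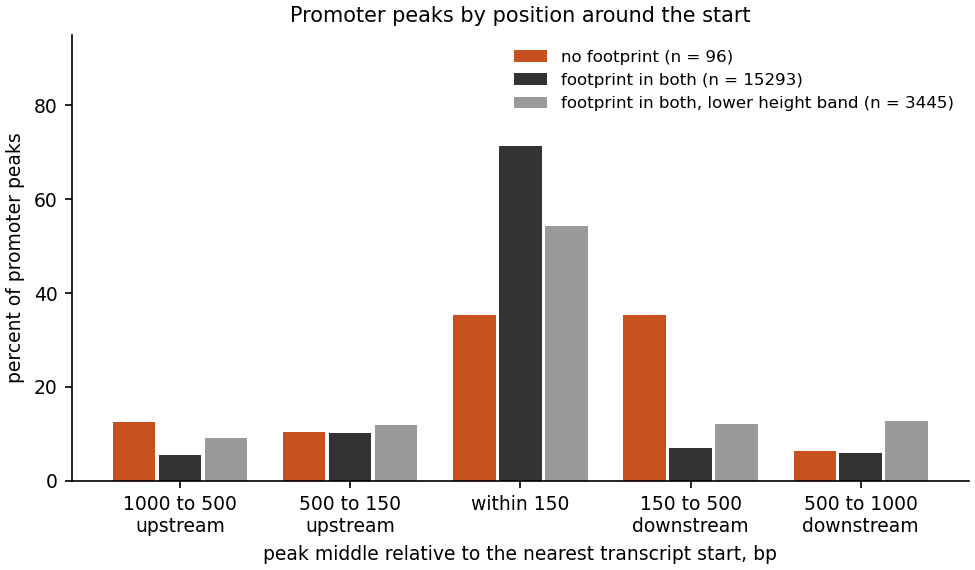
Percent of promoter peaks by the position of their middle around the nearest annotated transcript start, for 96 peaks without a footprint (orange), 15293 with a footprint in both libraries (black) and 3445 of the latter in the lower height band (grey). The black and grey bars are highest within 150 bp of the start (71.2% and 54.2%), and the orange bars are equal there and 150 to 500 bp downstream (35.4% each).

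The taller neighbour was common to members at promoters and elsewhere. It stood beside 93 of the 96 promoter members (96.9%) and 35 of the 40 others (87.5%) in both libraries, against 15.3% and 6.62% of footprinted peaks in the same places. Among tall shared peaks with such a neighbour, 3.27% of those at promoters and 2.69% of the others had no footprint, against 0.605% and 0.230% of all tall shared peaks there. The neighbour was taller at promoters, a median of 5.56 and 5.73 times the member's height in replicate 1 and replicate 2, than elsewhere, 3.22 and 2.75 times.

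Base composition was close to that of footprinted peaks in the same places. The members' median GC content was 57.9%, with a range from 36.3% to 79.6%, and their median observed over expected CpG ratio was 0.596. Peaks with a footprint in both libraries had 56.7% and 0.392, and 53.5% and 0.275 in the lower height band. Among promoter peaks with a taller neighbour in both libraries the medians were 61.1% GC and 0.72 for members against 61.7% and 0.692 for footprinted peaks. Away from promoters they were 55% and 0.263 against 53.9% and 0.273. Repeats were rare: at least 50% of the peak was soft-masked in 3 members, at Glis2, Rfx3 and Sema4b (2.21%), against 1.05% of footprinted peaks. In 0 of 136 members did at least 50% of the 31-base words occur elsewhere on the assembled chromosomes, which allows a share of up to 2.21% and compares with 0.439% of footprinted peaks.

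Letters of a known binding motif were as frequent in the members as in footprinted peaks of the lower band, with differences between single motifs. These groups differed in place and composition. Of members 70.6% were at promoters and of the band 27.7%, with median GC contents of 57.9% and 53.5%. Motifs were not compared within the same places, so the part of place and GC content in these shares was not tested. In the 150 bp around the peak's middle, on both strands, at least 1 of 20 motifs matched in all but 56 members (41.2% without a match), against 41.2% without a match in the footprinted lower band and 33.1% of all tall shared peaks. None of the 20 motifs was contained in another. CCAAT, the NFY motif, occurred in 25 members (18.4%, against 21.7% of all tall shared peaks and 16.2% of the footprinted band). GCCNNNGGC, searched for TFAP2, occurred in 23 (16.9%, against 12% and 9.75%), and the CTCF letters CNAGNGGGC in 8 (5.88%, against 7.09% and 6.79%). The SP/KLF letters GGGCGGGG and the AP-1 letters TGANTCA were each in 9 members (6.62%), against 12.7% and 5.25% of all tall shared peaks and 6.11% and 6.40% of the band. Letters of the tubule regulators HNF1 (GTTAATNAT) and HNF4 (AAAGTCCA) and of ERR (TCAAGGTCA), which acts on mitochondrial genes, were in 0 of 136 members, each allowing a share of up to 2.21% by 3 counts of the total. They were in 1.17%, 2.01% and 0.382% of all tall shared peaks and in 1.54%, 2.64% and 0.482% of the band. CRE (TGACGTCA) and RFX (GTTGCCATG) letters were also in 0 members, against 1.58% and 0.529% of all tall shared peaks and 0.667% and 0.410% of the band. In the printed sequences, the E-box letters CACGTG stood in D630024D03Rik from base 91 and in Gm45242 from bases 59 and 99, and no footprint was called over them.

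Among the highest members, the one beside the start of the long noncoding RNA gene D630024D03Rik had heights of 4.53 in replicate 1 and of 3.51 in replicate 2, next to a peak of 12.5 and 13.0. Its neighbour's printed centre is crossed by footprints of both libraries, and the member's 220 bp have none.

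**Figure D5:**
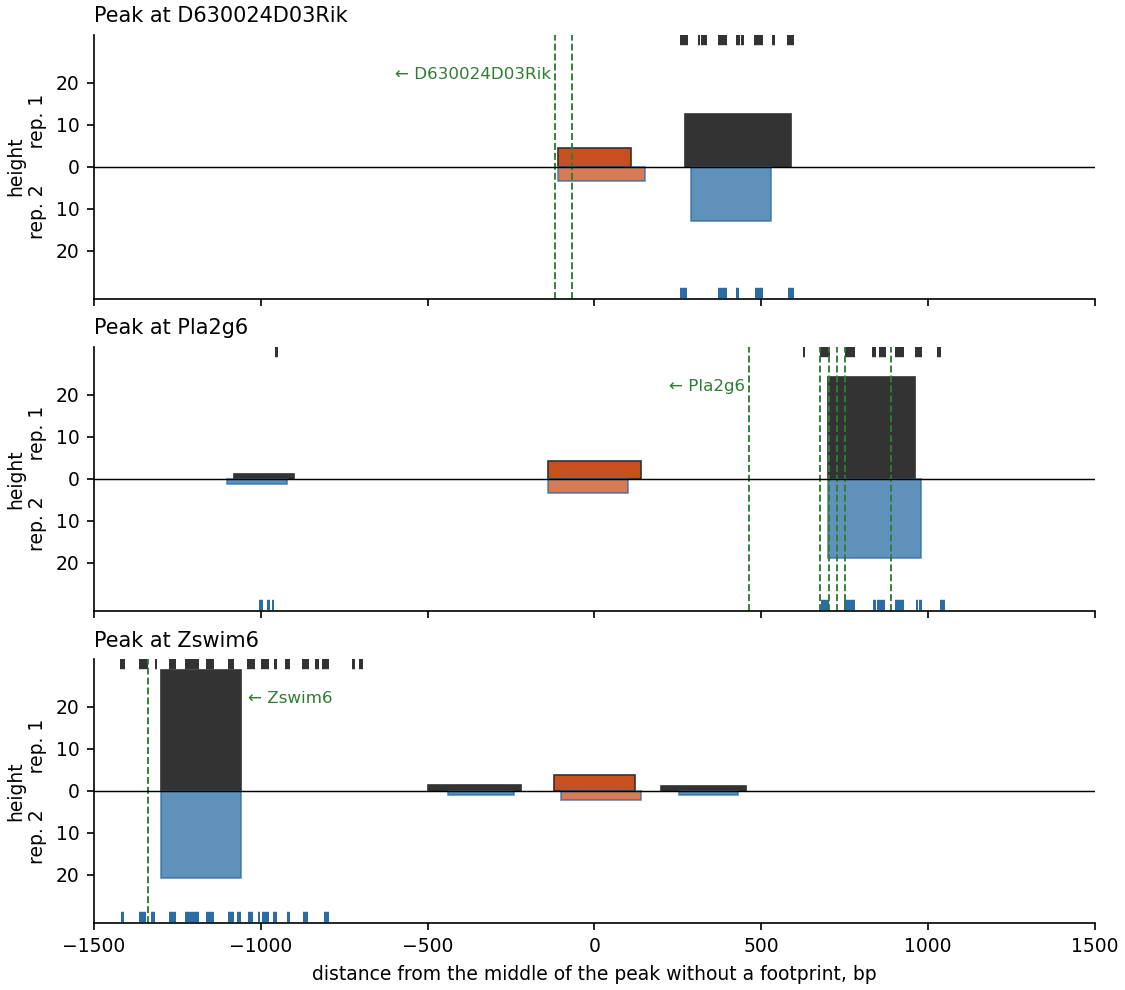
Peaks and footprints within 1.5 kb of 3 members, by distance from the member's middle: bars give peak height in the authors' signal units, upward for replicate 1 and downward for replicate 2, with members in orange, and short blocks above and below mark footprints; green dashed lines are annotated transcript starts with their direction. At D630024D03Rik and Pla2g6 the footprints nearest the member lie in and around the taller peak, and at Zswim6 the peaks within 1 kb are shorter than the member and a peak of 28.9 and 20.8 stands 1180 bp away.

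Of the 10 members that follow it in rank, 9 had a taller neighbour in both libraries, and 8 of these 9 were at promoters. Pla2g6, a phospholipase gene, had a member 463 bp downstream of a start at 4.25 in replicate 1 and 3.34 in replicate 2, beside a peak of 24.2 and 18.9. Ift140, which encodes a transport protein of cilia, had 4.29 and 3.11 beside 24.0 and 22.0. Fzd5, a Wnt receptor gene, had 4.96 and 2.40 beside 13.1 and 8.73, the largest difference between the libraries among these 9. In the first 3 the neighbour was over 2.6 times as tall as the member in both libraries. Zc3h18, which acts in nuclear RNA decay, had 4.04 and 2.65 beside 18.5 and 15.4. Dpagt1, the enzyme that begins N-glycan assembly, had 3.68 and 2.31 beside 9.38 and 6.13. Pogz, a heterochromatin-associated factor, had 3.30 and 2.44 beside 18.8 and 15.2, with the member 2 bp from a start. These 3 were at neighbours of unequal size, from 2.55 times the member's height at Dpagt1 to 6.23 times at Pogz. Cdk12, a kinase of RNA polymerase II, had 3.22 and 2.31 beside 15 and 11. Gm45242 had 3.12 and 2.53 beside 13.6 and 9.46. Agbl5, a tubulin-modifying carboxypeptidase, had 3.10 and 2.27 beside 9.34 and 6.85, 1193 bp upstream of its start. In each of these 9 the neighbour was at least 2.55 times as tall in both libraries.

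The widest members by mean width were at Zbtb14, Stag1, Sypl, 1810013L24Rik and Gm38534, the last tied with Glg1 at 340 bp. Their width differed between the libraries, with 240 and 580 bp at Zbtb14, a zinc finger factor, and 280 and 540 bp at Stag1, a cohesin subunit, but 560 and 220 bp at Sypl. Their heights ran from 1.63 to 2.64 in replicate 1 and from 1.47 to 2.15 in replicate 2, around the medians of all members, 2.35 and 1.66. The tallest neighbour relative to its member, chosen after its values were seen, was at Leprot, at 21.7 and 19.2 times the member's 1.35 and 1.64.

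Members seldom lay near each other. Within 5 kb there were 4 pairs, at Gpx4, which removes lipid peroxides, at the kinase gene Mknk2, at the deubiquitinase gene Mindy1, and between the starts of Arhgap21 and Gm13375. The Gpx4 members, 280 bp apart, had heights of 2.15 and 3.35 in replicate 1 and 1.49 and 1.5 in replicate 2 and shared 1 tallest neighbour in both libraries. The Arhgap21 and Gm13375 members shared theirs in replicate 2 alone, and the pairs at Mknk2 and Mindy1 had separate ones in both. The members were spread over all 19 autosomes and over 132 nearest genes. Their number ran from 2 of 933 tall shared peaks on chromosome 18 (0.214%) to 16 of 2952 on chromosome 11 (0.542%), against 0.409% on all autosomes. The highest share was 0.629%, on chromosome 10.

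Over 12 lists with 168 genes, 156 tall shared peaks lay within 1 kb of a listed start and 1 of them was a member, a share of 0.641%. The 0.409% of all tall shared peaks would give 0.638 members among 156, so the lists hold too few peaks to set them apart. None of the 19 peaks at proximal tubule genes, the 16 at endothelial genes, the 44 at kidney transcription factor genes or the 36 at housekeeping genes was a member.

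In 7 members there was no taller neighbour in either library, and 6 of them are described. One lay in an intron of Tns1, which encodes a focal adhesion protein, at 2.71 and 2.02 in replicate 1 and replicate 2. Others were near Gm37084, at 2.38 and 1.81, near Myl3, a cardiac myosin light chain gene, at 1.93 and 1.51, and upstream of Sema4b, at 1.61 and 1.48. None of these 4 had another peak with its middle within 1 kb, though an edge of one lay 845 bp from the Sema4b member in replicate 1. Zswim6, at 3.74 and 2.21, and Gm28536, at 2.65 and 1.66, had a peak there that was shorter than the member in both libraries. Just outside the 1 kb limit, 1180 bp from the Zswim6 member, stood a peak of 28.9 in replicate 1 and 20.8 in replicate 2. Emsy, a chromatin regulator gene, had a taller peak within 1 kb, 9.39 times its height, in replicate 2 alone. The edge of the nearest other peak lay 920 bp from the Emsy member in replicate 1 and 700 bp in replicate 2. Whether the 1 kb limit made this difference was not tested. In replicate 2 the peaks of Tns1, Sema4b and Myl3 were only 77, 70 and 44 bp wide. A replicate 2 footprint lay 3 bp from the edge of the Myl3 peak, within the span of its wider replicate 1 peak. At Tns1 a replicate 1 footprint lay 35 bp from the edge of the replicate 1 peak. Zswim6 was the only one of the 12 highest members without a taller neighbour within 1 kb.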

How the data were processed

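DNase-seq of kidney was analysed in 2 libraries of 1 group. Per the labels and the deposited description, the authors derived every file per library from a filtered alignment to mm10, without pooling. For aligner, callers and read totals the entry is: not given in the sources used here. Peak files of the authors hold a signal value per peak, its height, always a whole multiple (within 0.02) of 1 step; both medians were 144 steps, and the step of replicate 1 was 0.911 times that of replicate 2, and its relation to depth is not stated. The deposited footprint files hold 0.01 in every row, taken as a threshold, and the deposited rate files a false discovery rate (an adjusted p-value) per interval.

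Members followed the rule on the stricter peak sets, with sharing as an overlap of at least 1 base. Of replicate 1 peaks, 177 had several tall partners; one without a footprint was taken first, then the largest overlap. Starts came from GENCODE M21. The members, lists and measures were chosen with earlier results of these data known; the 1 kb neighbour and the lower height band were set after seeing the data. Named members are the 12 highest by mean rank, the 5 widest, up to 3 per gene list and the 3 nearest each side of the height rule; the 3 highest footprinted peaks, also taken by the rule, are not described, and some members that the rule takes are not reported here. Alternatives were the top 25% of heights, other medians, overlaps, peak sets, footprint margins, promoter and neighbour windows, and each library left out. Python 3.11.15, pandas 2.3.3 and scipy 1.17.1 were used. The selection at fixed height limits, the neighbour step and the motif search were tested on simulated data, and the other steps were not.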

Additional observations from a re-analysis of the deposited data

How the results depend on the processing

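With 1 group there was no test, and the limits are 2 libraries, a height scale that is not stated and footprints without a score. The number of tall shared peaks without a footprint was 146 with medians over all chromosomes, 135 with an overlap of at least 50% of the shorter peak and 116 with no footprint of either library within 50 bp. It fell to 4 of 16708 (0.0239%) among the top 25% of heights and was 540 of 50633 (1.07%) in the wider peak set. For these 4 peaks, among them D630024D03Rik, Pla2g6 and Ift140, the percent at a promoter was 100%, the percent with a taller neighbour 100%, the median width 210 bp and the median GC content 52.7%. With 1 library left out, the number ranged from 793 to 1590, the share from 2.37% to 2.60%, the promoter percent from 62.4% to 65.1%, the median width from 200 to 212 bp, the median GC content from 56.6% to 58.1% and the percent with a taller neighbour from 76.5% to 79.6%. Within 500 bp of a start lay 57.4% of the members, and 65.4% lay within 1 kb of a protein-coding start. A taller peak stood within 500 bp of 64.7% of members and 4.85% of peaks with a footprint in both libraries, within 2 kb of 97.1% and 16.9%, and one at least 2 times as tall within 1 kb of 84.6% and 3.58%. The other promoter, width, GC and neighbour values stayed within the interval or spread of the reported ones. No paired analysis was possible because there is 1 group.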

Other observations

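Tall shared peaks with a footprint in a single library lay between the members and the fully footprinted peaks in how often a taller peak stood near them, but not in every measure. There were 621 with a footprint in replicate 1 only and 193 with one in replicate 2 only. A taller peak stood within 1 kb in both libraries in 71.0% of the first (exact 95% binomial interval 67.3 to 74.6) and 53.4% of the second (46.1 to 60.6), against 94.1% of the members and 10.7% of peaks with a footprint in both. The tallest neighbour had a median of 3.44 times the peak's height in replicate 1 for the first group and 2.86 times for the second. At promoters lay 65.4% and 44.0%, against 70.6% of members and 47.3% of peaks with a footprint in both. The median distance to a start was 448 and 2372 bp, against 398 and 1350 bp, and the median GC content 58.3% and 53.9%, against 57.9% and 56.7%. The second group was outside the range of the members and the fully footprinted peaks in all 3, and the first in GC content. The first group was taller than the members, with median heights of 3.16 in replicate 1 and 1.96 in replicate 2, and the second was close to them, with 2.38 and 1.82.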
